A study of Mus musculus and Rattus norvegicus with 32 samples.

Results

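The genes described here are the PARP family of ADP-ribosyltransferases and Dtx3l, the partner protein of Parp9, in a study of the 18S rRNA methyltransferase METTL5 in the heart. The members were the rows with the symbols Parp1, Parp2, Parp3, Parp4, Parp9, Parp10, Parp11, Parp12, Parp14 and Dtx3l. They were 10 of 55487 genes in each of the 3 mouse heart tables and 9 of 32883 genes in the rat table, where Parp4 was not analysed. All members found passed the filter on low counts in every table. They were chosen by the measured values of Parp14, which were higher with AdMETTL5 and lower in METTL5-cKO hearts after transverse aortic constriction (TAC), a surgery that loads the left ventricle with pressure. The values of these 2 contrasts are therefore a description. Calls of members in them come from the fit over all genes and are given beside the share of all genes called, and nothing is read from them. Only the contrasts at 1 month and 3 months count as tests. The mice were C57BL/6, and each group had 4 libraries. Hearts labelled METTL5-KO, from a whole-body knockout, and control hearts were collected at 1 month of age. Hearts labelled METTL5-cKO, in which Myh6-Cre deletes floxed METTL5 exons in cardiomyocytes and not in the other cells of the heart, were collected with controls at 3 months, and at the same labelled age 4 weeks after TAC. The controls were littermates. Neonatal rat ventricular cardiomyocytes (NRVMs) of Sprague Dawley rats at postnatal day 2 carried the adenovirus AdMETTL5, with the human METTL5 coding sequence, or AdGFP. Both NRVM groups received 20 μM phenylephrine (PE), an adrenergic agonist that makes cardiomyocytes grow, for 24 h, so no NRVM value here comes from unstressed cells. No sham-operated heart was analysed here.

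PARP enzymes take NAD and attach its ADP-ribose to proteins. Parp1 and Parp2 bind broken DNA and build chains of ADP-ribose that recruit repair factors, and Parp3, which adds single ADP-ribose units, also acts at double-strand breaks. Parp4 is the PARP of the vault particle. A further group, described here as the interferon-induced members, is known to be transcribed in response to interferon: Parp14, Parp10, Parp11 and Parp12, which attach single ADP-ribose units, and Parp9 with Dtx3l, a ubiquitin ligase that works in a complex with it. This gave 6 interferon-induced and 4 other members.

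In GENCODE vM21 (GRCm38), 3 interferon-induced members lie close together on mouse chromosome 16. Parp14 (ENSMUSG00000034422) spans chr16:35832874-35871544 on the minus strand. Dtx3l spans chr16:35926511-35939151 on the minus strand, and Parp9 chr16:35938470-35972605 on the plus strand. Parp9 and Dtx3l run in opposite directions from starts that overlap, and share 682 bases, of which 458 are exonic in both genes, or 9.4% of the exon bases of Parp9 and 8.0% of those of Dtx3l. The strandedness of the libraries is not given in the sources used here, so reads in the shared stretch cannot be assigned to either gene with certainty. Parp10 (chr15:76231174-76243441) shares 205 exonic bases with Plec on the same strand, and Parp4 (chr14:56575619-56659794) shares 335 with the antisense gene Gm16573. The exon overlaps of Parp14, Parp1 and Parp3 with other genes were at most 1.18% of their exon bases. Parp11 (chr6:127446840-127494261), Parp12 (chr6:39086410-39118349) and Parp2 (chr14:50807841-50821301) shared none.

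Interferon acts on promoters through short motifs, among them the interferon-stimulated response element (ISRE) and the gamma-activated site (GAS), which are bound by factors downstream of its receptors. The RefSeq promoter table (GRCm38.p6, 250 bases before to 50 after each start) held windows for 7 of the 10 members and none for Parp9, Parp10 and Parp14. The ISRE core, here GAAA, any 2 bases and GAAA again, was searched on both strands and was in 2 of the 8 windows of these members, beside 3.44% of all 32851 windows and 43.3% of the 30 windows of a list of interferon-stimulated genes. The windows with the core belonged to Parp11, at the more upstream of its 2 starts, and to Parp4, which is not among the interferon-induced members. The GAS core TTCNNNGAA was in 1 of the 8 windows, that of Parp11, beside 8.30% of all windows. The windows of Parp1, Parp2, Parp3, Parp12 and Dtx3l held neither core. Of the 250 bases before the start, 179 for Dtx3l and 142 for Parp2 lay in annotated untranslated regions. The lack of a core in these windows therefore says little about the promoters of Dtx3l and Parp2. The stretches from 230 to 21 bases before the start are shown 5′ to 3′ on the strand of the gene, for the pair with a match and for Parp12, which differed strongly between the NRVM groups and had no match. Capitals mark the motifs. Parp11 is on the plus strand at chr6:127446610-127446819, Parp4 on the plus strand at chr14:56575389-56575598, and Parp12 on the minus strand at chr6:39118370-39118579.
Parp11: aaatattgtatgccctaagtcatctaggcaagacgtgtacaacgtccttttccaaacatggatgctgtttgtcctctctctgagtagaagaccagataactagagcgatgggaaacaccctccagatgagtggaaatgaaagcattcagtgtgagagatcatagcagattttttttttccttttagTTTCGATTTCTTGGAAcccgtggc
Parp4: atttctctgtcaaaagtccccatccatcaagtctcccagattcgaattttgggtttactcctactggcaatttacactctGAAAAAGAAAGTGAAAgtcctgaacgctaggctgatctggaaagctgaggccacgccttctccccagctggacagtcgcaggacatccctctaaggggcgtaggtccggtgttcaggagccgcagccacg
Parp12: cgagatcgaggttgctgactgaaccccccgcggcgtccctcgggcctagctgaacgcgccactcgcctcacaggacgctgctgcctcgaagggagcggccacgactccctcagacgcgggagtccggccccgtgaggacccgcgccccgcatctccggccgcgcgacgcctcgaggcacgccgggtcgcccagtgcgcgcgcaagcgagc
In Parp11 the ISRE core, on the minus strand, lay from 44 to 35 bases before the start, and the GAS core overlapped it from 37 to 29 bases before the start. Parp4 held a pair of overlapping ISRE cores on the plus strand, from 150 to 141 and from 144 to 135 bases before the start. These are matches of letters in mouse sequence, and the NRVM libraries are of the rat.

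Over the 8 groups the median depth of a library was 14480928 to 21664672 estimated counts, lowest for AdMETTL5. The member with the fewest reads, Parp11, had 61 to 140 estimated counts per library. Levels are given as CPM, the usual count relative to library size, with library sizes scaled by edgeR's TMM method. The row of Mettl5 itself did not pass the test between genotypes in the hearts. Its log2 fold change was 0.22 at 1 month (standard error 0.147, adjusted p = 0.973) and −0.18 at 3 months (standard error 0.116, adjusted p = 0.884), both by edgeR, adjusted by Benjamini-Hochberg over every gene tested. After TAC it was −0.04 (standard error 0.12). In the NRVMs, where the row is that of the rat gene, it was 0.32 (standard error 0.0723) and called higher, beside 27.1% of all genes. Whether reads of the human METTL5 insert were counted there was not checked. The tables count whole genes, so the deleted exons cannot be read from them and this row does not check the deletion. In the mouse, Mettl5 also shares 169 exonic bases with Ssb and 50 with Gm13625. The study itself looked at reads along the gene and reports the floxed exons as almost undetectable in METTL5-cKO hearts. The hearts are named by their labels throughout. Markers of cardiomyocytes were abundant in every heart, with a summed level of at least 14926 CPM over 6 genes. The NRVM libraries held 6391 to 15387 CPM of 5 such genes and also 8528 to 11229 CPM of 6 fibroblast markers.

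In mouse hearts all members were expressed at modest levels, which were compared between genes per kilobase of exon. In the 3-month control hearts Parp3 was highest, with 8.45 ± 0.339 CPM per kb (mean ± SD, n = 4), and its libraries lay apart from the next gene, Parp1, at 4.71 ± 1.07. Parp1, Parp12 (4.04 ± 0.47) and Parp4 (3.68 ± 0.154) overlapped with their neighbours in this order. Parp4 lay apart from Parp2 (2.84 ± 0.345), after which Parp14 (2.60 ± 0.221), Parp9 (2.50 ± 0.246), Parp10 (2.27 ± 0.241) and Dtx3l (2.09 ± 0.106) formed a run of neighbours whose libraries overlapped. Parp11 was lowest, at 0.505 ± 0.0545, and lay apart from every other member in all 6 mouse groups. Parp14 stood at 2.44 ± 0.13 CPM per kb in TAC control hearts, between Parp2 and Parp10, and at 1.53 ± 0.0746 in the TAC hearts labelled METTL5-cKO, where it was the lowest member but Parp11. At 1 month Parp12 (5.78 ± 0.796) followed Parp3 (7.13 ± 0.487), and Parp10, Parp9 and Parp14 stood between 3.76 and 3.86 CPM per kb in control hearts. The tables of the ages were scaled separately, so levels at 1 month and later are shown side by side without a comparison.

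**Figure D1:**
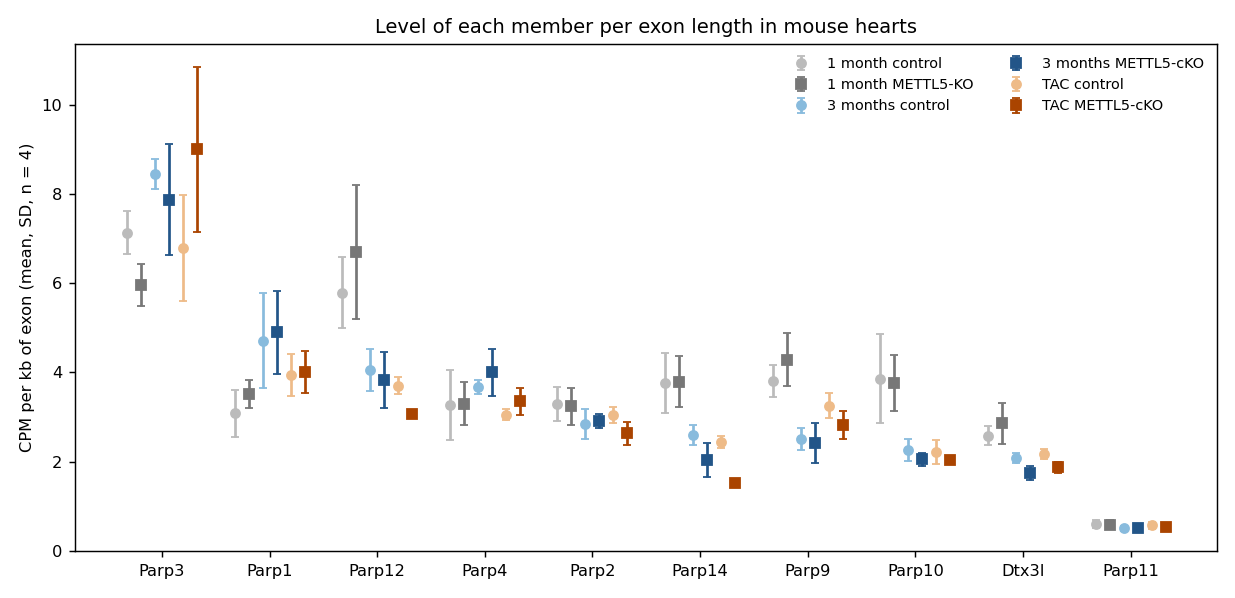
Level of each member in CPM per kilobase of exon (vertical axis) in the 6 groups of mouse hearts; points are means and bars the SD of 4 libraries. Parp3 is highest in 5 of the 6 groups and Parp11 lowest in all, and Parp14 is at 1.53 in the TAC hearts labelled METTL5-cKO.

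In NRVMs the interferon-induced members were higher with AdMETTL5 than with AdGFP, and the other members were not. Parp14 had 19.2, 16.7, 16.0 and 18.0 CPM in the AdGFP libraries and 90.6, 95.4, 122 and 98.3 in the AdMETTL5 libraries. The groups did not overlap, and the AdMETTL5 mean was 5.81-fold higher (log2 fold change 2.54, standard error 0.0968). Parp9, which binds ADP-ribose through its macrodomains, had 22.6, 18.5, 15.7 and 16.7 CPM with AdGFP and 110, 108, 136 and 93.6 with AdMETTL5. Its partner Dtx3l went from 8.12, 6.19, 5.66 and 6.74 CPM to 41.4, 43.0, 53.9 and 36.8. The fold of this pair was alike, at 6.09 for Parp9 (log2 fold change 2.61, standard error 0.125) and 6.55 for Dtx3l (2.71, standard error 0.132). Parp12, a PARP with zinc fingers, had 10.0, 8.60, 8.40 and 9.24 CPM with AdGFP and 48.1, 50.4, 57.3 and 40.4 with AdMETTL5, a log2 fold change of 2.44 (standard error 0.107). Parp10 was at 7.21 ± 0.865 and 24.8 ± 3.08 CPM (log2 fold change 1.78, standard error 0.109). These 5 members were the ones whose NRVM groups lay apart with the higher values in AdMETTL5. Parp11 differed least of the interferon-induced members, with 6.21 ± 0.512 CPM and 8.12 ± 1.11, overlapping groups and a log2 fold change of 0.38 (standard error 0.114).

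The other members of the NRVM table had lower values with AdMETTL5. Parp1, the enzyme that binds broken DNA, had 154, 159, 151 and 155 CPM with AdGFP and 104, 102, 104 and 112 with AdMETTL5. Every AdMETTL5 library was below every AdGFP library, and the log2 fold change was −0.55 (standard error 0.0437). Parp3 likewise was at 75.9 ± 4.37 CPM with AdGFP and 45.1 ± 2.04 with AdMETTL5 (log2 fold change −0.75, standard error 0.0554), without overlap. Parp2 was at 14.5 ± 0.799 and 13.4 ± 0.586 CPM, and its groups overlapped. Its value of −0.11 on the log2 scale (standard error 0.0701) became 0.03 when libraries were scaled by their size alone. That scaling moved the median of all genes from 0.00 to 0.13, and Parp1 and Parp3 stayed below 0 under it, at −0.41 and −0.61. By edgeR's adjusted p, 6 of the 9 members were called higher and 2 lower, beside 27.1% and 25.7% of the 15041 genes tested, and 52.8% were called in all. With an absolute log2 fold change over 1 as well, 5 were higher, beside 4.05% of all genes. Groups did not overlap for 7 of the 9, beside 48.4% of all genes. Since the contrast chose the members, nothing is read from these counts.

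**Figure D2:**
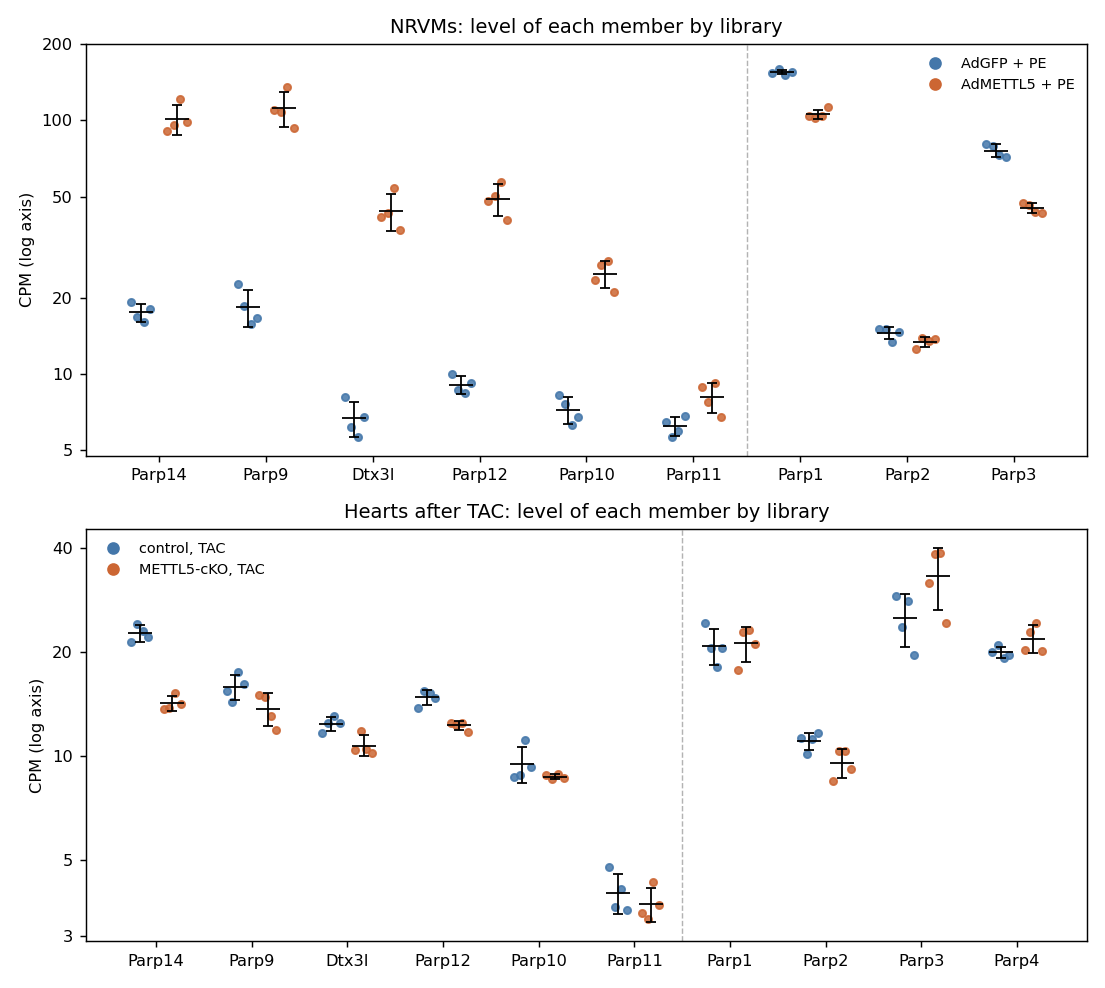
Level of each member in CPM (log axis) in each NRVM library (top) and in each heart library after TAC (bottom); points are libraries, horizontal marks means and bars SD, and the dashed line parts interferon-induced from other members. In NRVMs 5 interferon-induced members lie apart with the higher values in AdMETTL5, while Parp1 and Parp3 lie apart the other way. That stands beside 48.4% of all genes with groups that did not overlap. After TAC, Parp14 and Parp12 lie apart, beside 18.6% of all genes.

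Within the NRVM groups the interferon-induced members often had their highest or lowest value in the same library. AdMETTL5 library 3 held the highest value of all 6, and AdMETTL5 library 4 the lowest value of 5. Among AdGFP libraries, library 1 was highest for 5 and library 3 lowest for 5 of the 6. Over the 8 NRVM libraries, deviations of log2 CPM from the group mean were set against those of Parp14. Pearson's r was 0.86 for Dtx3l, 0.74 for Parp9, 0.71 for Parp12, 0.59 for Parp10 and 0.48 for Parp11. Without the 2 libraries farthest from the median of Parp14 it was 0.34, −0.23, 0.03, −0.04 and −0.03 in this order. The summed level of the interferon-induced members was 58.0 to 74.6 CPM with AdGFP and 297 to 406 CPM with AdMETTL5. Markers of cell types differed between these groups as well, where 27.1% of all genes were called higher and 25.7% lower. All 5 cardiomyocyte markers in the table were called lower with AdMETTL5, and their summed level was 13447 to 15387 CPM with AdGFP and 6391 to 7009 with AdMETTL5. Of 6 fibroblast markers 5 were called lower, with sums of 10679 to 11229 and 8528 to 9415 CPM. Macrophage markers summed to 64.7 to 75.7 CPM with AdGFP and 51.4 to 62.5 with AdMETTL5, and 6 of 7 lymphocyte and neutrophil markers, among them Cd3e, Cd79a and S100a9, were listed at 0 in every library. Other lists went the other way. Endothelial markers summed to 27.0 to 29.3 CPM with AdGFP and 39.0 to 46.6 with AdMETTL5, and 1 of the 4 tested, the receptor gene Kdr, was called higher (1.81-fold). Of 4 smooth muscle markers 2 were called higher, Acta2 and Tagln, at 0.25 and 0.24 on the log2 scale. In such bulk samples, fewer cells of a type and less RNA per cell cannot be told apart, and the part of these differences in the values of the members was not tested.

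After TAC the interferon-induced members had lower values in hearts labelled METTL5-cKO, with Parp14 farthest from 0. Parp14 had 21.4, 24.2, 23.1 and 22.1 CPM in control hearts and 13.7, 13.8, 15.2 and 14.2 in the METTL5-cKO hearts. The groups did not overlap, and the log2 fold change was −0.67 (standard error 0.0734), or 0.627-fold. Parp12 had 13.8, 15.4, 15.3 and 14.7 CPM in control hearts and 12.5, 12.3, 12.5 and 11.8 in METTL5-cKO hearts, also without overlap (−0.27 on the log2 scale, standard error 0.0714). Dtx3l and Parp9 had almost the same log2 fold change, −0.21 in both (standard errors 0.0809 and 0.102), with overlapping groups. Dtx3l was at 12.4 ± 0.598 and 10.7 ± 0.746 CPM, and Parp9 at 15.9 ± 1.36 and 13.7 ± 1.52. Parp10 and Parp11 were nearest to 0, at −0.12 (standard error 0.0952) and −0.11 (standard error 0.135). With libraries scaled by their size alone, which moved the median of all genes from 0.00 to 0.14, these last 2 were at 0.03 and 0.04, above 0 and still below that median, and Parp14 was at −0.53.

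Among the other members after TAC, Parp3 had the highest log2 fold change and the largest standard error, with 29.1, 23.6, 28.2 and 19.6 CPM in control hearts and 31.6, 38.5, 38.6 and 24.3 in METTL5-cKO hearts. Of these, 3 were above every control library and 1 was among them. Its log2 fold change was 0.41 (standard error 0.17). Parp1 (0.03, standard error 0.114) and Parp4 (0.13, standard error 0.0829) were close to 0, and Parp2, at −0.21 (standard error 0.093), lay with the interferon-induced members. By edgeR's adjusted p, 2 of the 10 members were called, Parp14 and Parp12, both lower, beside 6.1% lower, 6.57% higher and 12.7% in all of the 16340 genes tested, and none passed with an absolute log2 fold change over 1, beside 2.9%. The call of Parp12 was lost in 6 of the 8 fits that left out a library, those without METTL5-cKO library 1, 2 or 3 or control library 2, 3 or 4, and also under DESeq2, with scaling by library size alone and without a filter on low counts. Without METTL5-cKO library 4, Parp3 was called too, at 0.54. Groups did not overlap for 2 of 10 members, beside 18.6% of all genes, and at an unadjusted p under 0.05 there were 4, beside 31% of all genes. This contrast chose the members too, so nothing is read from these counts.

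Cell type markers also differed between these hearts, where 6.57% of all genes were called higher and 6.1% lower. All 6 endothelial markers were lower in METTL5-cKO hearts, 4 of them called, and their summed level was 640 to 766 CPM in control hearts and 433 to 576 in METTL5-cKO hearts. All 8 macrophage markers were higher, 2 of them called, with sums of 173 to 237 and 231 to 321 CPM. All 6 fibroblast markers were higher, 5 called, with sums of 482 to 614 and 722 to 1821 CPM. No cardiomyocyte, smooth muscle, lymphocyte or neutrophil marker was called. No marker was at 0 in both groups. Their part in the values of the members was not tested.

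At 3 months, in hearts without TAC, no member passed the test, beside 0.0732% of all 16391 genes. Parp14 had 24.8, 22.4, 26.9 and 22.7 CPM in control hearts and 16.8, 19.9, 15.7 and 23.7 in hearts labelled METTL5-cKO. Of the METTL5-cKO libraries, 3 were below all controls and 1 was among them. Its log2 fold change was −0.35 (standard error 0.136). In edgeR's test this had an unadjusted p = 0.0292 and an adjusted p = 0.637. Dtx3l had 12.6, 11.2, 11.9 and 12.1 CPM in control hearts and 10.4, 9.64, 9.06 and 11.1 in METTL5-cKO hearts. These groups did not overlap, and at −0.25 on the log2 scale (standard error 0.0979) the p of edgeR's test was 0.0298 before and 0.638 after adjustment. The exact two-sided permutation test gave p = 0.0286 for Dtx3l, the smallest that 4 against 4 libraries allow, and p = 0.0857 for Parp14. At an unadjusted p under 0.05 these 2 of the 10 members passed, beside 7.05% of all genes, and 1 of 10 did not overlap, beside 4.23%. Its partner Parp9 was at 12.2 ± 1.2 and 11.8 ± 2.18 CPM, a log2 fold change of −0.05 with an interval of 2 standard errors from −0.33 to 0.24. The remaining members ranged from −0.14 for Parp10 to 0.12 for Parp4, and the largest standard error was 0.18, for Parp1. The interval of Parp1 ran from −0.30 to 0.42. At this age no marker of a cell type was called either. All 6 endothelial (median −0.43 on the log2 scale), 4 smooth muscle (−0.57) and 6 cardiomyocyte markers (−0.09) had lower values in METTL5-cKO hearts. So did the 4 lymphocyte and neutrophil markers tested (−0.72). All 8 macrophage (0.36) and 6 fibroblast markers (0.53) had higher values. The part of these markers in the values of the members was not tested.

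At 1 month, in hearts labelled METTL5-KO, no member passed the test, beside 0.00612% of all 16329 genes. Parp14 had 31.6, 30.3, 44.2 and 34.0 CPM in control hearts and 33.0, 30.1, 35.6 and 42.5 in METTL5-KO hearts. The groups lay over each other, with a log2 fold change of 0.01 and an interval of 2 standard errors from −0.29 to 0.31 (adjusted p = 0.999 from edgeR). Parp3, a single-unit transferase at DNA breaks, was the member farthest from 0, at 26.4 ± 1.8 CPM in control hearts and 22.1 ± 1.75 in METTL5-KO hearts. At a log2 fold change of −0.26 (standard error 0.0955), edgeR's p was 0.0232 before and 0.973 after adjustment, and it was the only member under 0.05 before adjustment, beside 4.57% of all genes. Parp12, Parp1, Parp9 and Dtx3l had positive values of 0.15 to 0.21, each within 2 standard errors of 0. No member had groups that did not overlap, beside 3.01% of all genes.

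**Figure D3:**
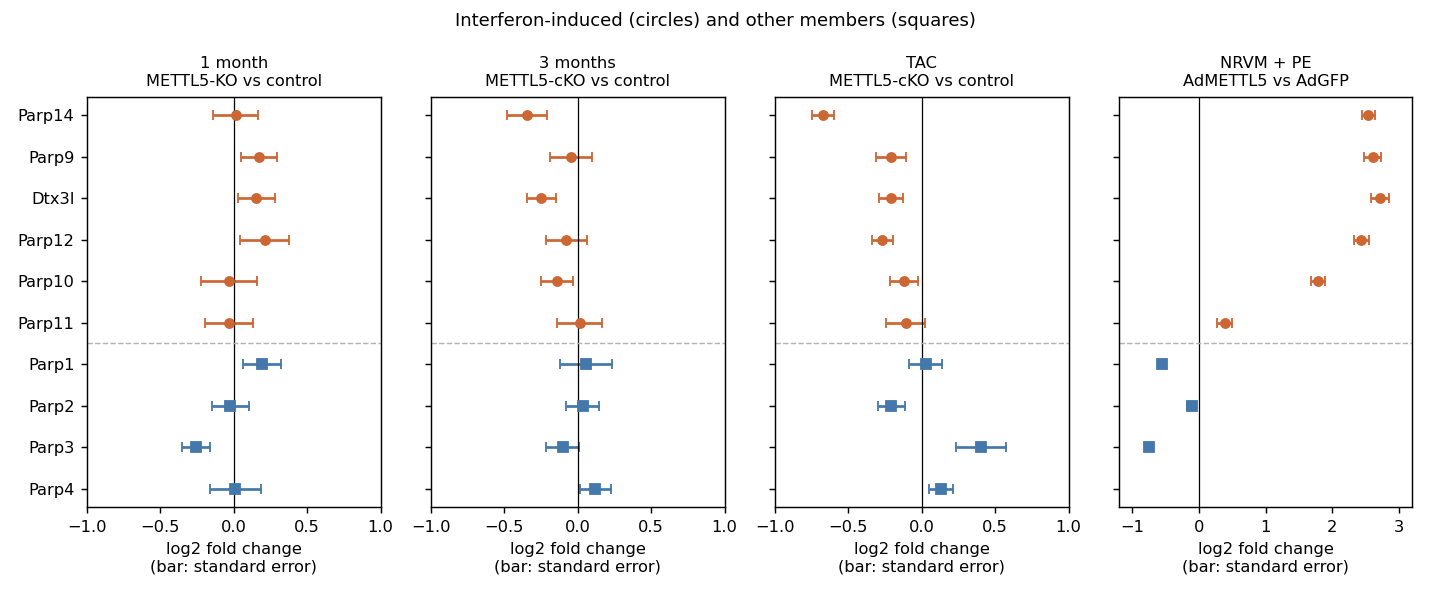
Log2 fold change of each member in the 4 comparisons, with bars of 1 standard error; circles are interferon-induced and squares other members, and the horizontal axis of the NRVM panel is wider. The values of Parp14 are 0.01, −0.35, −0.67 and 2.54 from left to right.

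The classes were compared by the median of their log2 fold changes. The SD beside each difference is that of a score per library within groups. It describes single libraries and is not the error of the difference. The score is the median log2 CPM of the interferon-induced members minus that of the others. At 1 month the median was 0.08 for the interferon-induced and −0.01 for the other members, a difference of 0.09 beside an SD between libraries of 0.26. At 3 months the medians were −0.11 and 0.04, a difference of −0.16 (SD 0.25). After TAC they were −0.21 and 0.08, a difference of −0.29 (SD 0.15). In NRVMs they were 2.49 and −0.55, a difference of 3.04 (SD 0.17). The first of these differences changed sign, to −0.03, without METTL5-KO library 4, and at 1 month and 3 months the difference was smaller than the spread between libraries. Parp14 alone had −0.35 at 3 months and −0.67 after TAC. For Dtx3l the values were −0.25 and −0.21, for Parp9 −0.05 and −0.21, and for Parp12 −0.08 and −0.27. Whether the genotype differed more after TAC than before was not tested, since the values after TAC chose the members.

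The remaining PARP genes were read as a further list. Of 6 tested in NRVMs, 2 were called higher with AdMETTL5 and none lower, beside 27.1% and 25.7% of all genes. Zc3hav1, the antiviral zinc finger protein also known as Parp13, was at 56.1 ± 2.17 CPM with AdGFP and 174 ± 19.9 with AdMETTL5, a log2 fold change of 1.64 (standard error 0.0751). Of 7 tested after TAC, 1 was called, beside 12.7% of all genes. It was Tnks, a tankyrase that builds ADP-ribose chains, and was higher, at 0.43. Its relative Tnks2 was at −0.08 and Parp6 at −0.29. Zc3hav1 was at −0.28 there. None of the 7 was called at 3 months or 1 month, and none had a value past 0.43 in either direction at those ages. Among the 6 enzymes that remove ADP-ribose, Macrod1, a mitochondrial hydrolase, had 142 ± 9.45 CPM in TAC control hearts and 98.4 ± 15.2 in METTL5-cKO hearts. It was called lower there, as was Oard1 (−0.40), beside 6.1% of all genes. In NRVMs Macrod1 was at −0.84 and Oard1 at −0.36. Adprh was at 0.01 after TAC and 0.02 in NRVMs, and Parg, which cuts the chains, at 0.21 and 0.13.

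The interferon-stimulated genes had higher values with AdMETTL5 and, but for 2 of them, lower values in METTL5-cKO hearts after TAC. All 31 tested in NRVMs were called higher with AdMETTL5, beside 27.1% of all genes, with a median of 3.10, and Gbp3 was listed at 0 in every library. After TAC 31 of 33 had lower values in METTL5-cKO hearts and 18 were called lower, beside 6.1% of all genes, with a median of −0.47. The 4 of them with the highest mean CPM in the mouse hearts, Sp100, Trim25, Igtp and Uba7, were at −0.69, −0.53, −0.78 and −0.47 after TAC and at 1.59, 1.59, 2.86 and 3.47 in NRVMs. At 3 months 28 of 33 had lower values, with a median of −0.23 and none called. At 1 month the median was 0.03, and none was called either. The value of Parp14 after TAC was thus beyond the median of this list and its value in NRVMs below it.

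Of the interferon receptors, kinases and transcription factors, 5 of 15 were called lower after TAC and 1 higher. This stands beside 6.1% and 6.57% of all genes, and the median of the list was −0.11. The receptor chain Ifngr1 was the gene called higher after TAC, at 0.38, and was at 0.03 in NRVMs. Ifngr2 was at −0.07 and −0.16, and the kinase Jak1 at −0.11 and −0.09. In NRVMs 9 of 15 were called higher and 1 lower, beside 27.1% and 25.7% of all genes, with a median of 0.85. No gene of the list was called at 3 months or 1 month.

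Partners of Parp1 and Parp2 at DNA breaks had medians near 0, at 0.09 after TAC and −0.03 in NRVMs. After TAC 1 of 14 was called higher, beside 6.57% of all genes. In NRVMs 5 were called higher and 3 lower, beside 27.1% and 25.7% of all genes. The polymerase Polb was at −0.00 after TAC and −0.03 in NRVMs, and the scaffold Xrcc1 at −0.20 and −0.08. Xrcc6, a subunit of the Ku ring on DNA ends, was at 0.19 and 0.45. Hpf1, which directs Parp1 and Parp2 to serine residues, was at −0.35 and 0.59. Of the genes that make NAD, Nmrk2, a nicotinamide riboside kinase of muscle, was at 5.20 ± 1.4 CPM in TAC control hearts and 35.8 ± 26 in METTL5-cKO hearts, a log2 fold change of 2.79 (standard error 0.583). Nampt, the rate-limiting enzyme of NAD salvage, was at −0.42 after TAC and 0.74 in NRVMs, Nmnat1 at −0.31 and 0.00, and Naprt at −0.55 and −0.21. Of the 7 NAD genes tested after TAC, 1 was called higher, Nmrk2, and 1 lower, Naprt, beside 6.57% and 6.1% of all genes. No gene of these lists was called at 3 months or 1 month.

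**Figure D4:**
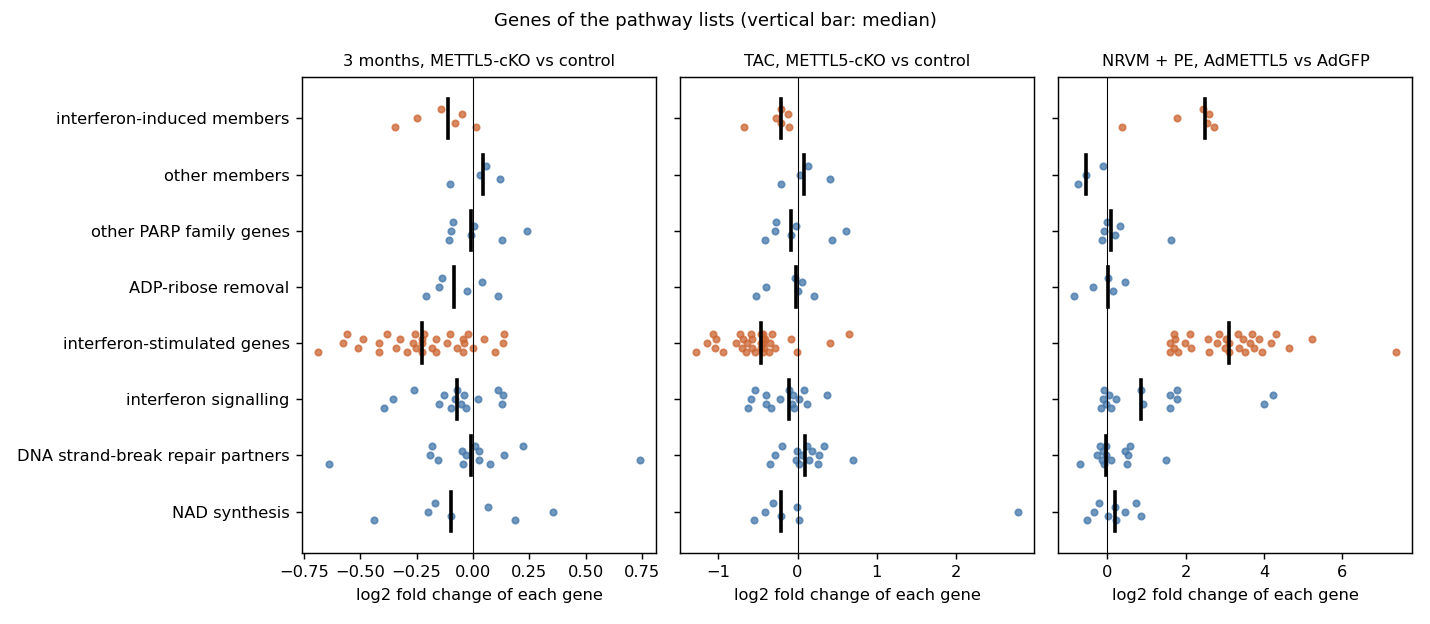
Log2 fold change of each gene (points) of 8 lists in 3 comparisons, with the median of the list as a vertical bar; the horizontal axes differ between panels. The interferon-stimulated genes have medians of −0.23, −0.47 and 3.10 from left to right, and the DNA strand-break repair partners −0.01, 0.09 and −0.03.

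Likeness to Parp14 was measured as the Pearson correlation of deviations from the group mean of log2 CPM over the 24 mouse libraries, so that the contrasts play no part in it. It is a description over libraries that were scaled together within a table. The 5 genes most like Parp14 of 15543 were Herc6 (r = 0.85, Spearman's rho 0.80), Tapbpl (r = 0.78), Oas2 (r = 0.77), Gbp5 (r = 0.77) and Gbp7 (r = 0.76). Herc6 and Gbp5 are on the list of interferon-stimulated genes. Among the members, Dtx3l was closest to Parp14, at r = 0.66 and rank 38, then Parp9 at 0.60 and rank 81, Parp10 at 0.54 and Parp12 at 0.40. Parp11 was at 0.23 and the DNA-break enzyme Parp3 at 0.27, while Parp4 was at −0.49, or −0.22 without the 2 libraries farthest from the median of Parp14. Without them, Dtx3l was at 0.60 and Parp9 at 0.51, still the closest pair, but the order after them changed. Parp11 was then at 0.39 and Parp3 at 0.35, level with or above Parp10 at 0.35 and Parp12 at 0.32. Within the 8 libraries of the TAC table alone the order above did not hold. Dtx3l was lower there, at 0.07, and so was Parp9, at −0.40. Parp12 was higher, at 0.64, and so was Parp4, at 0.55. Without the 2 libraries farthest from the median of Parp14 in that table, Parp12 was at 0.55 and Parp4 at −0.39.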

How the data were processed

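RNA of mouse hearts and NRVMs had been extracted with Trizol and sequenced on the BGISEQ platform. Per the submitters' processing notes, the authors used HISAT2 2.0.4, StringTie 2.1.4 and DESeq2 1.4.5, with the builds GRCm38 and Rnor_6.0, and deposited 1 table of StringTie's estimated counts per comparison, in whole numbers without scaling. The design had assumed counts, and the same test was applied. Strandedness and annotation release are not given in the sources used here. At 1 month each column belongs to a known sample, and in the other tables to a group only, where libraries are numbered by the order of the numbers in the column names. Nothing says that libraries of a group came from separate cultures, so p-values may measure technical spread there.

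A quasi-likelihood model per table was fitted with edgeR 4.0.16 under R 4.3.3, after filterByExpr (at least 10 counts, and 15 in total) and TMM scaling, with Benjamini-Hochberg adjustment over all genes, and called at an adjusted p under 0.05. Exact permutation tests used all 70 labellings of 4 against 4 libraries and log2 CPM with a prior count of 2. Total counts per library were 14324700 to 21804907, and over all genes the standard error had a median of 0.175 (1 month), 0.157 (3 months), 0.135 (TAC) and 0.0807 (NRVM) on the log2 scale. Even the closest libraries of a group differed by more than sampling noise (chi-square over its degrees of freedom 2.16), so none was counted as a duplicate. Exon lengths are unions over GENCODE vM21. The fit was tested on simulated data. The alternatives were DESeq2 1.42.0, other scalings, no filter, other thresholds, a replicate block at 1 month and each library left out. Beside all 10 members, each other list was described by its 4 genes with the highest mean CPM over the 24 mouse libraries, and genes outside this rule (Gbp3, markers at 0) are named where a count is about them. A few genes within the rule are not reported here. The members and lists were chosen with earlier results of these data known.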

Additional observations from a re-analysis of the deposited data

Results flagged for a closer look

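Each member was checked in each group for a library far from the other 3, by the gap to its neighbour as a share of the range of the group. Of 78 sets of 4 libraries, 3 held such a library, and chance flags about 1 in 20. Parp11 had 5.15 CPM in library 4 of the 1-month METTL5-KO hearts, where the others had 3.70 to 3.92. Dtx3l had 11.8 CPM in library 2 of the TAC METTL5-cKO hearts, where the others had 10.2 to 10.5. Parp1 had 112 CPM in library 4 of the AdMETTL5 NRVMs, where the others had 102 to 104. Without that library the log2 fold change was −0.15 for Parp11 at 1 month, −0.26 for Dtx3l after TAC and −0.58 for Parp1 in NRVMs, each with the sign it had with all libraries.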

How the results depend on the processing

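Of the members, 2 were called after TAC, beside 12.7% of all genes, 8 in NRVMs, beside 52.8%, and 0 at either age without TAC. The contrasts after TAC and in NRVMs chose the members, so their counts are a description. At an unadjusted p under 0.05 there were 1 at 1 month, 2 at 3 months and 4 after TAC, beside 4.57%, 7.05% and 31% of all genes. Members called after TAC numbered 1 under DESeq2, with scaling by library size alone and without a filter on low counts. The count was 0 with a minimum absolute log2 fold change of 1, beside 2.9% of all genes, and 1 to 3 with each library left out. In NRVMs it was 5 with that minimum, all higher, beside 4.05% of all genes. All other NRVM fits, including those that left out a library, gave 8. The difference between the classes moved by less than the SD between libraries in every fit. At 1 month and 3 months that SD was larger than the difference itself, so there this says little of its stability. The difference ranged with each library left out from −0.029 to 0.19 at 1 month, from −0.25 to −0.088 at 3 months, from −0.36 to −0.21 after TAC and from 2.94 to 3.12 in NRVMs. Log2 fold changes near 0 changed sign in some fits, none of them called. With scaling by library size alone this was so at 1 month for Parp10 (0.033), Parp11 (0.026) and Parp2 (0.023) and at 3 months for Parp9 (0.0023). With each library left out, the values at 1 month ranged from −0.14 to 0.15 for Parp10, −0.15 to 0.041 for Parp11, −0.089 to 0.14 for Parp14, −0.086 to 0.063 for Parp2 and −0.089 to 0.19 for Parp4. At 3 months they ranged from −0.14 to 0.035 for Parp9, −0.070 to 0.10 for Parp11, −0.16 to 0.0093 for Parp12, −0.075 to 0.21 for Parp1 and −0.038 to 0.095 for Parp2. Those of Parp14 ranged from −0.47 to −0.27 at 3 months, from −0.70 to −0.64 after TAC and from 2.44 to 2.59 in NRVMs. The shorter motif GAAANNGAA gave the same 2 members with a match. Without the 2 libraries farthest from the median of Parp14, 2 of the 5 genes most like it, Herc6 and Tapbpl, were still among the 5. At 1 month same-numbered samples correlated at 0.24, 0.12, −0.11 and 0.08, so the numbers were not taken to pair them, and the replicate block gave 0 calls and a class difference of 0.078. No paired analysis was possible because the columns of the other tables carry no replicate numbers of the labels in both groups. With 4 libraries per group, a difference under 2 standard errors could not be told from 0, and the overlap of Parp9 with Dtx3l limits what either count can say of the other gene.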
